A study of Drosophila melanogaster with 3 samples.

Results

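The genes described here are those annotated as small nuclear RNA (snRNA) genes in Drosophila melanogaster. They were taken as every gene of biotype snRNA on chromosome arms 2L, 2R, 3L, 3R, 4 and X in the Ensembl BDGP6 annotation, which gave 32 of 18164 genes. Of the 32 genes, 16 lay on 2L, 10 on 3R, 4 on 3L and 2 on X. None lay on 2R or on chromosome 4. By RNA, they comprised 5 U1, 6 U2, 3 U4, 7 U5 and 3 U6 genes, a pair of 7SK genes, and 1 gene each for U7, U11, U12, U4atac, U6atac and the RNA named LU. The set is therefore somewhat wider than the spliceosome, because U7 acts in histone pre-mRNA processing and 7SK in the control of transcription elongation.

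The study mapped where the protein encoded by CG30403 lies on chromatin, by chromatin immunoprecipitation and sequencing (ChIP-seq). It used a transgenic fly line that stably carries CG30403 fused at its C terminus to the green fluorescent protein eGFP, and an antibody to that tag. Whole embryos of mixed sex, aged 0 to 24 h, were taken in 3 biological replicates of this single group, and the chromatin was sonicated to fragments of 200 to 800 bp. The data are thus averages over all embryonic cell types and stages, and the measured protein is the tagged one.

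Spliceosomal snRNAs are short, abundant RNAs that pair with pre-mRNA and with each other inside the spliceosome. U1 recognises the 5′ splice site, U2 the branch point, and U4, U5 and U6 enter together as the tri-snRNP, while U11, U12, U4atac and U6atac serve the minor spliceosome. In flies, RNA polymerase II makes most of them and RNA polymerase III makes U6, U6atac and 7SK, and both kinds of promoter carry a proximal sequence element (PSEA) that is bound by the complex SNAPc. Polymerase III genes of this kind add a TATA element between the PSEA and the start site.

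Among the 32 genes, 7 had a summit of the authors' optimal peak list within 500 bp of their transcription start site (TSS), and are called bound here. These were U1:95Ca, U2:34ABb, U4:39B, U5:63BC, U5:35D, U6:96Ab and U6:96Ac. Their promoters are shown first because the positions of the peaks are given relative to them. Each line runs from 75 bases before the TSS to 12 bases into the transcript, on the gene's own strand, read from the RefSeq Release 6 genome (dm6 coordinates). Capitals mark the core of the PSEA, TTCCCAA or TTCTCAA, and, in the polymerase III genes, the TATA-like element.
U1:95Ca (chr3R:23859619-23859705, minus strand): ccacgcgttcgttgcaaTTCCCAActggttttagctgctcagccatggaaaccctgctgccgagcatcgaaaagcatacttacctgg
U2:34ABb (chr2L:13215764-13215850, plus strand): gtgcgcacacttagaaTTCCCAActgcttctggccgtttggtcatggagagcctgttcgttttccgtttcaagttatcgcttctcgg
U4:39B (chr2L:21215167-21215253, minus strand): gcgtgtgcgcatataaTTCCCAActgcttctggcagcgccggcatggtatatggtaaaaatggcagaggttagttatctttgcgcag
U5:63BC (chr3L:3090726-3090812, plus strand): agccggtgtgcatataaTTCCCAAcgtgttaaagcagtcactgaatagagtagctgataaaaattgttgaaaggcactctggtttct
U5:35D (chr2L:15751671-15751757, minus strand): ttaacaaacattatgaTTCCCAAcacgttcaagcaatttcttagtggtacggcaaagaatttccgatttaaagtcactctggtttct
U6:96Ab (chr3R:24556617-24556703, plus strand): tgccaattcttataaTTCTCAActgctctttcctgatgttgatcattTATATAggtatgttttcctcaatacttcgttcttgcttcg
U6:96Ac (chr3R:24557140-24557226, plus strand): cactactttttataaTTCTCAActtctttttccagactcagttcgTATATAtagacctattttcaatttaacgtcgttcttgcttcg

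Of the 25 unbound genes, 24 carried the core as well. The next lines give 4 unbound genes for comparison. U1:95Cb and U1:21D encode an RNA identical to that of U1:95Ca, U6:96Aa encodes an RNA identical to those of the bound U6 genes, and 7SKb was the only gene of the 32 with no core match.
U1:95Cb (chr3R:23827795-23827881, plus strand): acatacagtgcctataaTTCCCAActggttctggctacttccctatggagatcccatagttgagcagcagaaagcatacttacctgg
U1:21D (chr2L:901643-901729, minus strand): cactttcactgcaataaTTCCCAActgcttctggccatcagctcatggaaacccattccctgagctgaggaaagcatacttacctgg
U6:96Aa (chr3R:24556013-24556099, plus strand): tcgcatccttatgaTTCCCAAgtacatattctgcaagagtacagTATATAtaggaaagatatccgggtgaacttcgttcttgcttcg
7SKb (chr3R:23432794-23432880, plus strand): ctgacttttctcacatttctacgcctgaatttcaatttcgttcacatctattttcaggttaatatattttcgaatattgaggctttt

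In the authors' optimal list of 7827 regions, the 7 bound genes were 21.9% of the 32 (95% exact Clopper-Pearson interval 9.28 to 40.0%, counting error only). The background was 25.1% of all 18164 genes and 30.2% of 13945 protein-coding genes, so the snRNA share lay near the share of genes in general. Other short noncoding genes were lower, at 18 of 290 tRNA genes (6.21%) and 17 of 269 snoRNA genes (6.32%). Most genes of these classes, 258 of 290 tRNA and 240 of 269 snoRNA genes, lay over 500 bp from every protein-coding TSS. Among noncoding genes over 500 bp from every protein-coding TSS, 6.02% of 3553 were bound, against 6 of 29 snRNA genes (20.7%, interval 7.99 to 39.7%), 7 of 258 tRNA genes (2.71%, interval 1.10 to 5.51%) and 9 of 240 snoRNA genes (3.75%). The 6 isolated snRNA genes include the pair U6:96Ab and U6:96Ac, which share 1 summit, and U5:35D, whose summit is nearer to a protein-coding TSS. Differences between gene classes were not tested.

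**Figure D1:**
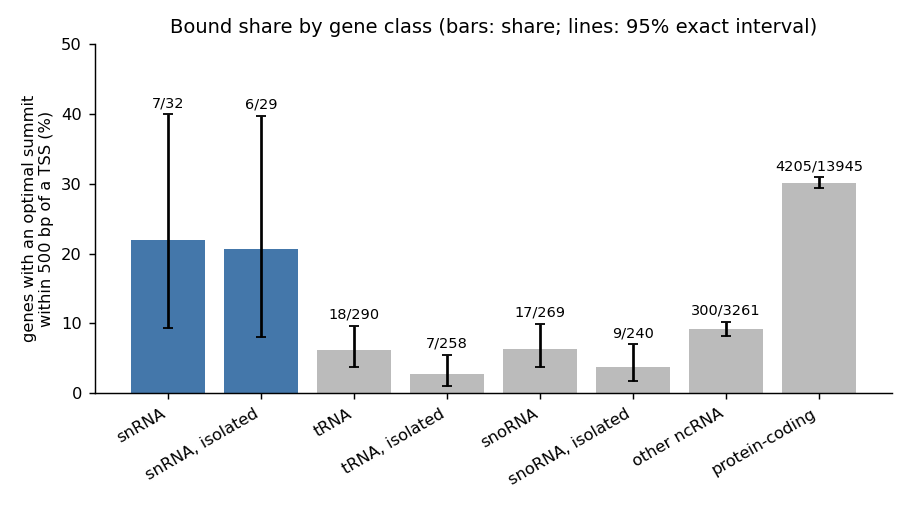
Bound share of each gene class (percent of genes, vertical axis; window 500 bp), with 95% exact intervals as lines and bound over total genes above each bar. "Isolated" genes have no protein-coding TSS within 500 bp; snRNA genes sat at 21.9% (20.7% when isolated), protein-coding genes at 30.2% and tRNA genes at 6.21%.

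By RNA class, bound genes were 1 of 5 U1, 1 of 6 U2, 1 of 3 U4, 2 of 7 U5 and 2 of 3 U6 genes. No optimal summit lay within 500 bp of U7, U11, U12, U4atac, U6atac, LU or either 7SK gene. In all, 5 of 25 polymerase II genes and 2 of 6 polymerase III genes were bound, the latter through a single peak. Peaks at these genes were of modest strength. The 7 separate summits held ranks 2638 to 6940 of the 7827 by the authors' peak score, median 5530, whereas summits at protein-coding promoters had a median rank of 3289. The score is the authors' own value for each region and is used here only to order regions within a list.

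U1:95Ca, one of the genes for the 5′ splice site RNA, was the only snRNA gene with 2 optimal summits. The stronger summit lay 151 bp downstream of the TSS, with score 202 and rank 4886, and the other 49 bp upstream, with score 165 and rank 6061. Their regions, chr3R:23859237-23859720 and chr3R:23859437-23859920, overlap, so the 2 summits need not mark distinct sites. In replicates 1, 2 and 3 the strongest summits held ranks 5632, 7630 and 3442, at +97, +201 and +18 bp. It was the only snRNA gene with a summit among the 7827 strongest regions of every replicate, 1 of 32 (3.13%), against a background of 19.5% of all genes. That count depends on the cutoffs. U5:35D missed it only because its replicate 3 summit lay at +507 bp, and the U6 pair only through rank 8164 in replicate 1. The nearest protein-coding TSS, that of Pli, was 30573 bp from the stronger summit.

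U2:34ABb encodes U2, the branch point RNA. Its optimal summit lay at +165 bp (score 180, rank 5530). The replicate ranks were 7482, 10966 and 3360, at -2, +145 and +154 bp, and replicate 2 therefore fell outside the strongest 7827. Replicate 1 also had a summit of similar rank, 7654, at +205 bp, 14 bp past the gene end. The optimal summit was 654 bp upstream of the TSS of kek4, a gene for a leucine-rich repeat membrane protein, and thus nearer to the TSS of U2:34ABb.

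U4:39B encodes U4, the RNA that holds U6 inactive until the spliceosome is activated. Its summit, at +127 bp, was the weakest of the 7, with score 145 and rank 6940. The replicate ranks were 11338, 11066 and 5549, at +114, +58 and +123 bp, so that only replicate 3 placed it within the strongest 7827. The gene lies inside Atg18b on the same strand. The nearest protein-coding TSS was that of CG8679, 3493 bp away.

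U5:63BC and U5:35D encode U5, which contacts the exons at the splice sites, but their peaks differed in position. The summit of U5:63BC lay at +103 bp (score 179, rank 5570), 8926 bp from the nearest protein-coding TSS, that of PAN3. Its replicate ranks were 7800, 9554 and 4181, at +104, +52 and +59 bp. The summit of U5:35D lay at +494 bp, 369 bp past the end of the gene and at the edge of the window (score 333, rank 2638). It was 110 bp upstream of the TSS of ND-B17, a gene for a subunit of mitochondrial complex I, and so nearer to that gene than to U5:35D. Its ranks were 2847 and 2882 in replicates 1 and 2, at +484 and +495 bp. In replicate 3 the corresponding summit fell at +507 bp, outside the window, with rank 2466. The best rank inside the window there was 13576, at +308 bp.

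U6:96Ab and U6:96Ac encode U6, the RNA at the catalytic centre of the spliceosome, and stand 523 bp apart in the same direction. A single summit between them was 380 bp downstream of the U6:96Ab TSS and 143 bp upstream of that of U6:96Ac (score 289, rank 3182). Its replicate ranks were 8164, 3679 and 2277, at -45, -125 and -114 bp relative to U6:96Ac. The nearest protein-coding TSS, that of Esyt2, was 8055 bp away. The first gene of the cluster, U6:96Aa, was 984 bp from this summit and had no summit within 500 bp in any list. The optimal region was 205 bp wide.

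**Figure D2:**
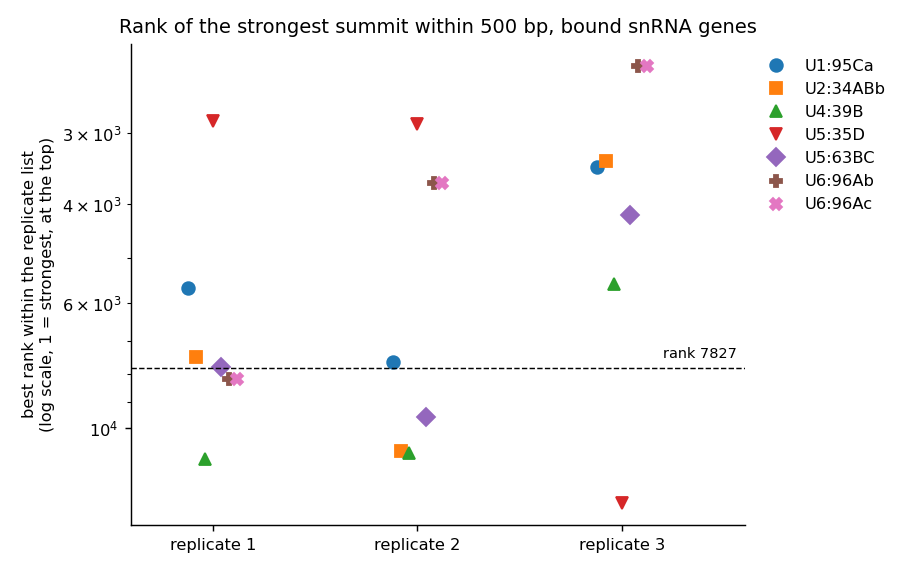
Best rank of any summit within 500 bp of each bound snRNA gene in replicates 1, 2 and 3 (vertical axis on a log scale, strongest at the top), with the dashed line at rank 7827. U6:96Ab and U6:96Ac share their peak, and the low point of U5:35D in replicate 3 (rank 13576) is a neighbouring weaker region, because the rank 2466 summit lay 507 bp from the TSS.

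Replicate 3 ranked these genes higher than the other replicates did. The median best rank over the 7 bound genes was 7800 in replicate 1, 7630 in replicate 2 and 3442 in replicate 3. For bound protein-coding genes the medians were 2943, 2641 and 2874. The best of the 3 ranks came from replicate 3 in 6 of 7 snRNA genes, against 38.7% of 4107 protein-coding genes. The 7 genes are not independent, because U6:96Ab and U6:96Ac share 1 peak and its ranks. For the exception, U5:35D, the rank 2466 summit of replicate 3 lay just outside the window. Each replicate's strongest 7827 regions reached 4, 4 and 7 of the 32 snRNA genes, mean 5 ± 1.73 (SD, n = 3), against 23.4%, 25.0% and 25.3% of all genes. As shares, these were 12.5%, 12.5% and 21.9%, each below that background. The background lay inside each 95% exact interval, 3.51 to 29.0% in replicates 1 and 2 and 9.28 to 40.0% in replicate 3. The full lists of 29373 to 30000 regions, which include background regions, reached 16, 12 and 15 snRNA genes, against 44.7%, 46.2% and 48.6% of all genes. In all 3 full lists 11 of 32 (34.4%) were reached, against a background of 35.6%. The data hold no read counts, so the depth of each replicate is unknown, and its part in this difference was not tested.

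Most summits lay downstream of the start site. Over the 8 pairs of gene and optimal summit, the median position was +139 bp, with 6 of 8 downstream, while 3601 summits near protein-coding TSSs had a median of -107 bp and 14.0% downstream. Medians were -8 bp at 16 tRNA summits and -234 bp at 16 snoRNA summits. The measures differ: each protein-coding, tRNA or snoRNA summit was placed once, relative to its nearest TSS of that class. In the snRNA pairs the single U6 summit enters for both genes, at +380 and -143 bp, of which -143 bp is the nearer. The median over the 7 bound genes was +104, +145 and +123 bp in replicates 1, 2 and 3, 124 ± 20.5 bp (SD, n = 3). These genes are 107 to 192 bp long, but the medians do not place every summit near a gene end. The summits of U5:35D and of the U6 pair lay outside the genes. Replicate summits near the start also occurred, at +18 bp for U1:95Ca (replicate 3) and -2 bp for U2:34ABb (replicate 1). At U2:34ABb, replicate 1 had another summit of similar rank at +205 bp (7654 against 7482). The difference from protein-coding genes was not tested, and 2 of the 6 downstream values, those of U5:35D and U6:96Ab, belong to peaks nearer to another TSS.

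**Figure D3:**
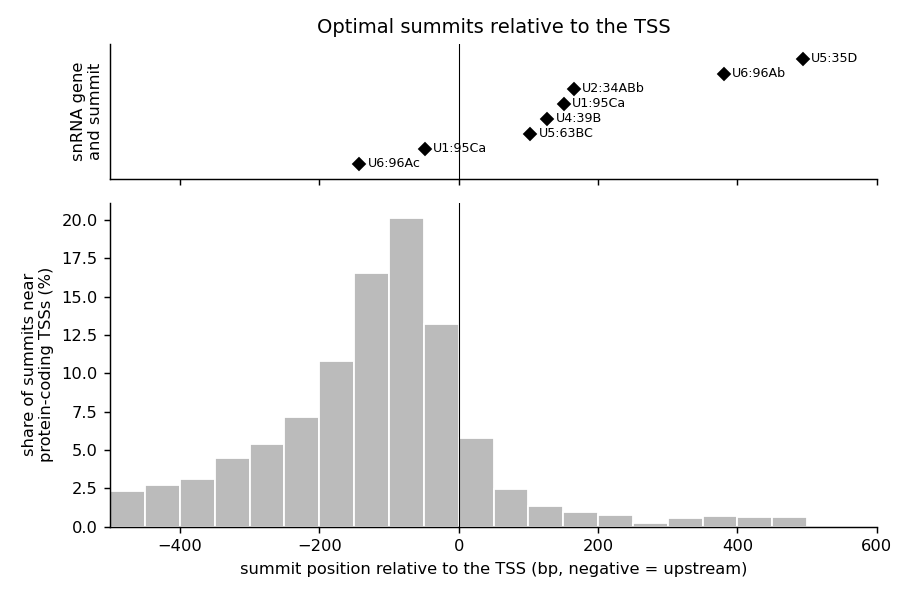
Position of optimal summits relative to the TSS (bp, negative upstream): above, each of the 8 pairs of snRNA gene and summit; below, the share of 3601 protein-coding promoter summits in each 50 bp bin (percent). The snRNA summits run from -143 to +494 bp with 6 of 8 downstream, whereas the fullest protein-coding bin, 20.1%, spans -100 to -50 bp. Protein-coding summits are placed once, at the nearest TSS, while the shared U6 summit appears for both of its genes.

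At U1:95Ca, U2:34ABb, U4:39B and U5:63BC the optimal summit fell inside the gene, 12, 26, 15 and 19 bp before its end. The transcribed sequences of U1:95Ca, U2:34ABb and U4:39B follow, with the base at the summit and 3 bases on each side in capitals, to show where in each RNA the summit falls.
U1:95Ca (chr3R:23859467-23859630, minus strand): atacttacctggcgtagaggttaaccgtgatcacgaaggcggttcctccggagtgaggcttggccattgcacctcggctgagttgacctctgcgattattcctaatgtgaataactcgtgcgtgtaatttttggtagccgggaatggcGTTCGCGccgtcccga
U2:34ABb (chr2L:13215839-13216030, plus strand): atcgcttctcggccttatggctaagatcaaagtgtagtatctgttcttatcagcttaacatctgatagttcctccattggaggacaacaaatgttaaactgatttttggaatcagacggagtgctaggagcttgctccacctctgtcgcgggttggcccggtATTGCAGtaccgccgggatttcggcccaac
U4:39B (chr2L:21215036-21215178, minus strand): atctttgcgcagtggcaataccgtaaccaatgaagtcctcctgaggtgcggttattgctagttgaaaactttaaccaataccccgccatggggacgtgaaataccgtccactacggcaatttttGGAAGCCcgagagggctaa

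In each of these 3 sequences the capitals fall in the last part of the RNA. The spacing to the gene end was not repeated in each replicate: for U1:95Ca the strongest summits of replicates 1 to 3 were 66 bp before the end, 38 bp past it and 145 bp before it. For U5:63BC they were 18, 70 and 63 bp before the end. In the optimal list, 5 of the 7 snRNA regions had the commonest width, 484 bp, which 59.5% of the 7827 regions shared. In 4652 of the 4657 such regions the summit lay within 1 bp of the centre, so the base given is in most of these regions the centre of a region of fixed width that is longer than the gene.

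**Figure D4:**
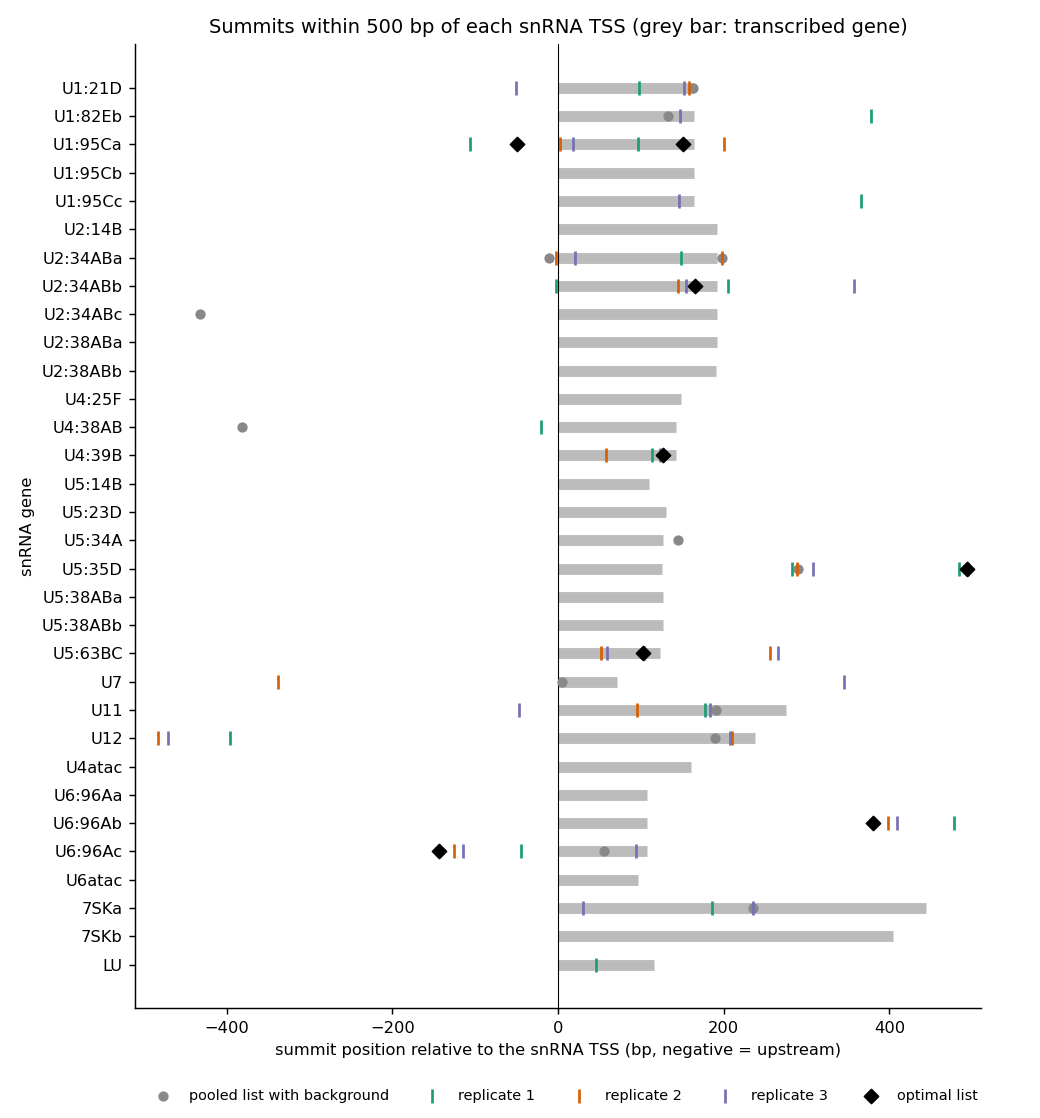
Every summit within 500 bp of each of the 32 snRNA TSSs (bp, negative upstream) in the optimal list (black diamonds), the pooled list with background regions (grey circles) and the 3 replicate lists (coloured ticks); grey bars are the transcribed genes, and a diamond covers the pooled summit at the same place and some ticks. Diamonds stand at 7 genes, and 13 genes have no mark at all.

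The other 25 genes had no optimal summit within 500 bp. Their nearest one was 825 to 22718 bp away, median 6430 bp, and 3 genes had one within 1000 bp. For 7SKa it lay at +825 bp (score 261, rank 3638), 390 bp upstream of the TSS of CG1142. For U11 it lay at +953 bp (score 372, rank 2259), 197 bp upstream of the TSS of Fie. Both were nearer to the protein-coding gene. The last of the 3 was U6:96Aa, 984 bp from the U6 summit described above.

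Weaker regions were present at some of these genes. In the pooled list, where background regions extend to rank 30000, 17 of 32 genes had a summit within 500 bp, against a background of 47.0% of all genes. The 10 that were not bound had scores of 31.8 to 122. The highest, U1:21D, lay just under the lowest optimal score of 128.9, with rank 8247 at +163 bp, 0 bp from the gene's end, and its best replicate ranks were 14112, 11061 and 6689. U2:34ABa held pooled rank 10993, U11 15469 and 7SKa 17538. U7, U12, U1:82Eb, U2:34ABc, U4:38AB and U5:34A ranked from 24768 to 28583, and U2:34ABc and U5:34A, 287 bp apart, share 1 region. The strongest pooled summit lay inside the gene in 10 of the 17. Of the unbound genes, 4 (U1:21D, U2:34ABa, U11 and U12) had a summit within 500 bp in every replicate list. U1:95Cc and LU had such summits in replicate lists alone.

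No summit in any list lay within 500 bp of the TSS of the other 13 genes. They were 7SKb, U1:95Cb, U2:14B, U2:38ABa, U2:38ABb, U4:25F, U4atac, U5:14B, U5:23D, U5:38ABa, U5:38ABb, U6:96Aa and U6atac. The U2 and U5 genes of cytological regions 38AB and 14B, where copies of both RNAs lie 555 to 609 bp apart, are all among them. Of 16 genes with another snRNA TSS within 2000 bp, 2 were bound, U6:96Ab and U6:96Ac, which share the same optimal summit. For comparison, 7 of all 32 snRNA genes (21.9%) and 25.1% of all genes were bound. Whether nearness to another snRNA gene goes with fewer peaks was not tested.

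Several copies are near-identical, which bears on how reads could be placed. The 3 U6 RNAs were 100% identical to each other, the 5 U1 RNAs 98.2 to 100%, the 6 U2 RNAs 98.4 to 100%, the 3 U4 RNAs 73.8 to 94.4% and the 7 U5 RNAs 78.3 to 96.1%. The share of 31-base stretches of the gene that occur once in the genome had a median of 0% in the 7 bound genes (range 0 to 47.8%) and 37.1% in the 25 unbound (range 0 to 100%). Over the whole 1 kb around the TSS the median was 91.1% (range 81.2 to 93.9%) and 92.6% (range 45.4 to 100%). The lowest were U2:38ABa (45.4%), U2:34ABc (46.9%) and U2:38ABb (48.9%). Of these, U2:38ABa and U2:38ABb had no summit within 500 bp in any list. Of the 31-base stretches that cover the summit base itself, the unique share was 100% at the optimal summits of U5:63BC, U5:35D and the U6 pair and at the upstream summit of U1:95Ca. It was 58.1% at U4:39B, 38.7% at the downstream summit of U1:95Ca and 9.68% at U2:34ABb. At the strongest replicate summits it was 0% for U1:95Ca in replicate 1 and for U2:34ABb and U5:63BC in replicates 2 and 3. Of 9 genes whose surroundings were fully unique, 0 were bound and 4 had a pooled summit within 500 bp. Another 4 (7SKb, U4:25F, U4atac and U6atac) had no summit within 500 bp in any list. The files and labels do not state read length or how reads with several matches were handled, and their part in which copy has a peak was not tested.

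The promoter element was shared by bound and unbound genes alike. Within 250 bases before to 50 after the TSS, searched on both strands, TTCCCAA occurred in 26 of 32 snRNA promoters and in 5.37% of 13944 protein-coding promoters. With TTCNCAA, a form chosen after seeing these sequences, it occurred in 31 of 32 against 19.8%, in 7 of 7 bound and 24 of 25 unbound genes. On the gene's strand the core began 55 to 64 bases before the TSS, and 60 to 61 bases before it in the polymerase III genes that had it. A TATANA match, also chosen after seeing the sequences and overlapping TATAAA, began 28 to 31 bases before the TSS in 5 of 6 polymerase III genes and 0 of 25 polymerase II genes. Over the full window TATANA was found in 22 of 32 snRNA promoters and 63.5% of protein-coding ones.

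Over all 32 genes, the other motifs searched in the same window had shares close to or below those of protein-coding promoters. TATAAA was present in 15 of 32 (46.9%) against 45.3%, and GAGAG, the core bound by GAGA factor, in 9 of 32 (28.1%) against 30.2%. TATCGAT, the core of the DNA replication-related element, was in 1 of 32 against 17.7% of all and 28.2% of bound protein-coding promoters. None of the 7 bound snRNA promoters held TATCGAT, while 4 of 7 held TATAAA and 4 of 7 held GAGAG. Among bound protein-coding promoters the shares of TATAAA and GAGAG were 46.3% and 28.3%. With 7 genes, these differences were not tested.

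**Figure D5:**
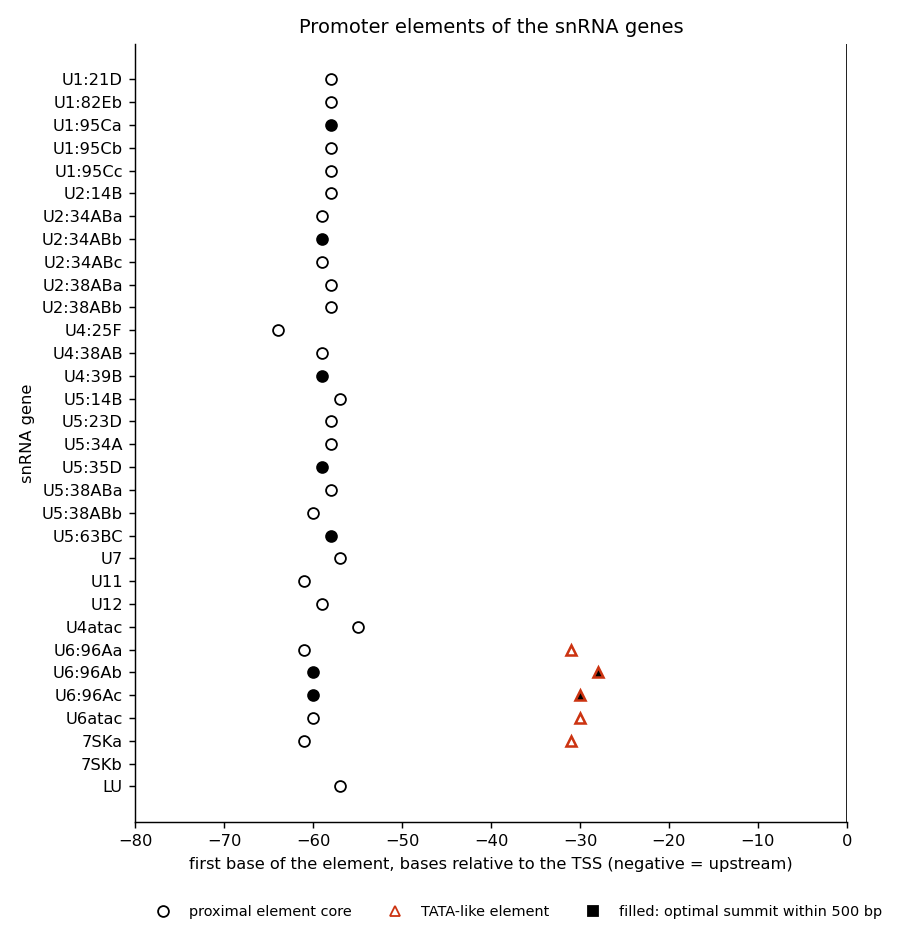
Start of the PSEA core (circles) and of the TATA-like element (triangles) in each snRNA gene, in bases relative to the TSS; filled symbols are genes with an optimal summit within 500 bp. The core starts 55 to 64 bases before the TSS in 31 genes, bound or not, and the TATA-like element 28 to 31 bases before it in 5 polymerase III genes.

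Peaks also lay near the starts of protein-coding genes whose products make, process and carry snRNAs. Of 60 such genes, 31 had an optimal summit within 500 bp (51.7%), beside 30.2% of all protein-coding genes. At 25 of the 31 the summit also lay within 500 bp of another protein-coding TSS, so it cannot be assigned to 1 gene. Of the bound genes named below, all but Pbp45, Smn, bin3, CycT and Rnp4F shared their summit in this way. The 31 had a median rank of 2102. In the strongest 7827 regions of every replicate 26 of the 31 were reached (83.9%), near the 78.6% of all bound protein-coding genes.

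The groups that follow held 2 to 14 genes each, with bound shares from 33.3% to 100%, beside 30.2% of all protein-coding genes. With so few genes per group, differences from that share were not tested. Among transcription factors of snRNA genes, 5 of 7 were bound. Bdp1 and Brf, subunits of the polymerase III initiation factor TFIIIB, had scores of 2186 (rank 52, shared with CG6565) and 1537 (rank 145, shared with sds22). The SNAPc subunit Pbp95 had 422 (rank 1891), and its partners Pbp49 and Pbp45 ranked 6439 and 7268. Tbp and Trf had no summit. Of the Integrator, which cleaves the 3′ end of polymerase II snRNAs, 7 of 14 subunits were bound, led by IntS6 (rank 518), IntS9 (rank 764) and IntS11 (rank 1092). In the group of capping, export and little elongation complex genes, 3 of 7 were bound: Ice1 (rank 1281), the cap-binding protein gene Cbp20 (rank 1339) and the export adaptor gene Phax (rank 6692).

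Of the genes for snRNP assembly, 2 of 6 of the SMN complex were bound, Smn (rank 2177) and rig (rank 5739). That share, 33.3%, lay near the 30.2% of all protein-coding genes. In the Sm ring, which encircles the polymerase II snRNAs, 4 of 6 matched genes were bound, led by SmB (rank 4416), SmD2 (rank 5985) and SmD3 (rank 6807). The listed symbol SmG matched no gene. In the Lsm group, which includes the ring on U6, 5 of 10 listed symbols matched no gene: Lsm2, Lsm4, Lsm5, Lsm6 and Lsm8. Of the 5 matched genes, 2 were bound, LSm1 (rank 1641), a subunit of the cytoplasmic ring, and LSm7 (rank 4906). The count therefore does not describe the whole ring on U6. Of 8 snRNP protein genes, 3 (37.5%) were bound: the U4/U6 protein gene Prp31 (rank 1550), snRNP-U1-C (rank 2102) and snf (rank 2948), whose product binds U1 and U2. In the 7SK particle 3 of 5 were bound, bin3, the fly 7SK capping enzyme (rank 181), Larp7 (rank 2230) and CycT (rank 7054), while the 7SK genes themselves had no optimal summit within 500 bp. Both measured genes of the nuclear body group, Rnp4F (rank 2086) and coil (rank 3357), were bound.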

How the data were processed

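Chromatin immunoprecipitation was done in 3 replicates of 1 group. The authors deposited peak lists on build dm6: 1 list with background regions for each replicate, 1 for all replicates, and an optimal list kept by irreproducible discovery rate, each called with a shared control, per the labels and the text notes. The control is not analysed here. For aligner, peak caller, threshold and read length, the sources used here give nothing. The deposited score orders regions within a list; the deposited −log10 q value was 4.23 for every optimal region and was not used further. The deposited summit offset was added to the region start. There are no read counts, so depth is unknown. Lists on build dm3 were not used, and 0 columns belonged to other samples.

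Gene starts came from Ensembl release 115 and bases from the RefSeq Release 6 genome of the same assembly. For each gene, summits within 500 bp of any annotated TSS counted. Replicate lists were compared by rank and at an equal length of 7827 regions. No test was made between gene classes. Replicates are separate biological samples, per the labels. The members and gene lists were chosen with earlier results of these data known. Of 68 listed biogenesis symbols, 7 matched no gene: 5 in the Lsm group, 1 in the Sm ring and 1 in the nuclear body group. Named were every snRNA gene and, from each list, the 3 bound genes with the strongest summit, with Pbp49 and Pbp45 added after their values were seen. Alternatives were window, peak strength, list, left-out replicates, isolated genes and motif window; counting summits nearer to the snRNA TSS, TTCNCAA and TATANA were added after the data were seen. The summit search was tested on simulated data. Python 3.11.15, pandas 2.3.3, numpy 2.4.6 and scipy 1.17.1 were used. A transcribed sequence of 1 further gene is not reported here.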

Additional observations from a re-analysis of the deposited data

How the results depend on the processing

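The count of 7 bound snRNA genes was 5 of 32 with a 250 bp window (19.8% of all genes), 10 with 1000 bp (29.7%) and 7 when any overlap of the region with the window counted (27.3%). It was 6 for isolated genes, 6 when the shared U6 summit was counted for 1 gene and 6 when summits nearer to a protein-coding TSS were left out, an alternative chosen after seeing the data. It fell to 3 (U5:35D, U6:96Ab and U6:96Ac) in the stronger 3913 optimal peaks, where 16.3% of all genes were bound, and to 0 in the 1000 strongest, where 5.63% were. The count in every replicate, 1, was 2 to 3 when a replicate was left out (20.5 to 22.2% of all genes), 11 with the full lists (35.6%) and 0 with the 4000 strongest regions per replicate (12.5%); these settings differ in the number of lists or regions used. The median summit position, +139 bp, was +151 bp with the strongest summit per gene and +145 bp in the pooled list. The biogenesis count, 31, was 27 of 60 with 250 bp (24.4% of protein-coding genes) and 34 with 1000 bp (34.0%). In the 100 bases before the TSS, TTCCCAA stayed at 26 promoters and TTCNCAA at 31, while TATAAA fell from 15 to 5, GAGAG from 9 to 3, TATANA from 22 to 6 and TATCGAT from 1 to 0. No paired analysis was possible because there is a single group. With 7 summits and no read counts, neither error per peak nor small differences between classes could be resolved.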
